A study of Mus musculus with 20 samples.

Results

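The 10 genes described here are the core components of the circadian clock and its first output genes: Arntl, Clock, Per1, Per2, Per3, Cry1, Cry2, Nr1d1, Nr1d2 and Dbp. They were chosen by name, as the rows whose symbol in the deposited gene table equals one of these symbols, and all 10 were found among the 48709 genes of the table. Each passed the filter on low counts that left 19797 genes for the tests. Their levels were followed through the hippocampus of 20 adult C57BL/6 mice (C57BL/6J in the study's methods), and the question was how they differ with gestational exposure and sex, and whether the genes of the 2 arms of the clock vary together between animals.

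The mice were the offspring of dams that inhaled either nPM, the nano-sized fraction of urban air pollution particles, or filtered air as the control. Exposure ran 5 h per day on 3 days per week from gestational day 2 until birth, at 300 μg/m3 by the study's methods, where the labels have mg. RNA was taken from 20 offspring, 5 of each sex and exposure, which were drawn from 5 litters per exposure, and the litter of each sample is not given in the sources used here. Females were aged 17.71 to 18.29 weeks and males 18.57 to 19.14 weeks, and the males of both exposures had in addition received EdU, a label of dividing cells, so that sex, age and injection cannot be told apart. The mice lived on a cycle of 12 h light and 12 h dark, and the time of day at which each was killed is not given in the sources used here.

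The clock of mammalian cells is a loop of transcription. Arntl, also called Bmal1, and Clock encode the activators, which pair and bind E-boxes in the genes Per1, Per2, Per3, Cry1 and Cry2, and the PER and CRY proteins then repress that pair. The activators also drive Nr1d1 and Nr1d2, whose products REV-ERBα and REV-ERBβ repress Arntl through ROR elements, and Dbp, a leucine zipper factor that acts on D-boxes. In most tissues of the mouse, the hippocampus included, Arntl transcripts, and more weakly those of Clock, are therefore high when those of Nr1d1, Dbp and the Per genes are low, and the 2 sets are called here the morning arm (Arntl and Clock, 2 genes) and the evening arm (Nr1d1, Dbp, Nr1d2, Per1, Per2, Per3 and Cry2, 7 genes). Cry1 carries both kinds of elements, peaks later than the other evening genes and was kept apart. Per1 and Per2 also respond quickly to neuronal activity and to glucocorticoids.

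Promoters were available from RefSeq (build GRCm38.p6, the mm10 assembly) for 9 of the 10 genes (not Per2), in 13 windows of 250 bases before a transcript start. Both strands were searched for the E-box CACGTG, the D-box TTANGTAA, the cAMP response element TGACGTCA and the ROR pattern TNGGTCA. N stands for any base, so the ROR pattern is a loose form of the core of the ROR element. Over all 32851 windows of this length, 6.02% held the E-box, 2.06% the D-box, 9.19% the ROR pattern and 1.55% the cAMP response element. Among the 9 genes searched, the E-box was in windows of Per1 and Cry1 and the D-box in that of Per3. The ROR pattern was in those of Arntl, Per3 and Cry2, and the cAMP response element in none. The matches of these motifs in the windows of the clock genes did not overlap one another. The windows of Arntl, Per3 and Per1 are shown because these genes take part in correlations described further on. They were picked after those values were seen. The windows of Dbp and Cry2, which also take part, are not shown. Letters in capitals mark matches to the ROR pattern in Arntl, to the D-box and the ROR pattern in Per3 and to the E-box in Per1. Each window is read 5′ to 3′ on the strand of the gene.
Arntl, chr7:113207215-113207464, plus strand: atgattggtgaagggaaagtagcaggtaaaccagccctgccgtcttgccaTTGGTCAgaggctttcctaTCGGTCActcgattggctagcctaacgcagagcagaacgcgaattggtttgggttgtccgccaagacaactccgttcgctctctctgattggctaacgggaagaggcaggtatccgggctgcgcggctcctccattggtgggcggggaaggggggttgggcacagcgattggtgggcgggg
Per3, chr4:151044666-151044915, minus strand: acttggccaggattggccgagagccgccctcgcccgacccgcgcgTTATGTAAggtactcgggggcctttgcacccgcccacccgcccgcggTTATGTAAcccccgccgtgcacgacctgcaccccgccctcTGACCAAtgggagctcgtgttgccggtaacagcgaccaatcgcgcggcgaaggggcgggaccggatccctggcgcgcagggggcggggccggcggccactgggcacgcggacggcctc
Per1, chr11:69098699-69098948, plus strand: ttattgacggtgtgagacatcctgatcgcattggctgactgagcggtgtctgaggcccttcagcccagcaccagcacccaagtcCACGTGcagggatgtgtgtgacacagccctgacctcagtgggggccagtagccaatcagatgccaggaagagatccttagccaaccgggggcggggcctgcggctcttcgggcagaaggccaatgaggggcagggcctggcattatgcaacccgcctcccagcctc
The 2 matches to the ROR pattern in Arntl, TTGGTCA and TCGGTCA, began at positions −200 and −181 from the start. The same 2 were found from a second annotated start. Whether either is a site through which REV-ERB proteins repress Arntl was not tested. The 2 D-boxes of Per3 had the same letters and began at −205 and −158. The E-box of Per1 began at −166 from a start that lies inside the gene as the deposited table gives it. A match is a run of letters and does not show that a factor was bound there in these samples.

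The whole clock was expressed in the hippocampus. Total counts per sample were between 19092067 and 38663408, and a count of 0 would have allowed up to 0.157 CPM (the count of a gene relative to all counts of its sample, elsewhere in the text with TMM factors) in the least deeply sequenced sample. The lowest raw count of any clock gene in any sample was 227 (Cry1), so counting error was small for all of them. All 8 markers of hippocampal neurons passed the filter, with summed levels of 1220 to 2300 CPM. Of 6 markers of the hypothalamus with the suprachiasmatic nucleus, the site of the master clock, only 1 passed, Vip. Markers of choroid plexus varied from 32.5 to 8210 CPM summed over 7 genes, and those of blood from 1.25 to 56.9 CPM over 5 genes of which Alas2 was at 0 in some samples. A pair of libraries stood apart in base composition: genes of high GC content lay 0.59 (log2) below genes of low GC content in nPM female 4 and 0.38 below in control male 1, relative to the mean of all samples, where the other 18 lay between −0.10 and 0.32.

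Per length of gene in the deposited table, Nr1d2 was the most abundant clock gene, at a mean of 29.2 RPKM over the 20 samples. RPKM are counts per kilobase of that length, scaled for depth like CPM. Nr1d2 was above the next gene in 20 of 20 samples without overlap of the ranges. Cry2 (14.8 RPKM), Clock (13.8), Nr1d1 (12.2), Dbp (9.85) and Per1 (9.46) followed, each with a range that overlapped that of its neighbour. Per1 was above Per3 in 20 of 20 samples. The remaining 4 genes lay close together, with Per3 at 5.49, Per2 at 5.46, Cry1 at 5.00 and Arntl at 4.73 RPKM, and neighbours in this order changed places between samples. The length in the deposited table can exceed that of the longest annotated transcript. It was 7523 against 3995 bases for Arntl and 2993 against 1837 for Dbp, but 5001 against 4663 for Nr1d2. The order of the genes therefore depends on the length used. Each of these RPKM levels belongs to a piece of tissue: fewer cells of one type and less RNA per cell cannot be told apart in them.

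Arntl (ENSMUSG00000055116.8, chr7:113207465-113314126), Clock (ENSMUSG00000029238.11, chr5:76209868-76304792), Per1 (ENSMUSG00000020893.17, chr11:69095217-69109960), Per2 (ENSMUSG00000055866.9, chr1:91415982-91459324) and Per3 (ENSMUSG00000028957.12, chr4:151003652-151044665) are given with their positions in mm10. Cry1 is ENSMUSG00000020038.9 (chr10:85131702-85185054), Cry2 is ENSMUSG00000068742.11 (chr2:92403646-92434043), Nr1d1 is ENSMUSG00000020889.11 (chr11:98767932-98775333), Nr1d2 is ENSMUSG00000021775.10 (chr14:18204054-18239127) and Dbp is ENSMUSG00000059824.12 (chr7:45705088-45710203). In the deposited table Nr1d1 overlaps Thra, Dbp overlaps Sphk2, Cry2 overlaps D930015M05Rik and Arntl overlaps Gm45355, each on the opposite strand. Per3 overlaps Camta1 and Clock overlaps Ube2n-ps1 and Gm43658 on the same strand. Whether strand was used in counting is not given in the sources used here, so reads from the shared stretches of these 6 genes could not be assigned with certainty.

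No change with gestational nPM exposure was detected in any of the 10 clock genes. In the 20 samples together, with sex as a covariate, none passed p under 0.005 in limma-voom (0.141% of all genes tested, 28 of 19797, did) and none had a p under 0.05 (2.10% of all genes). The log2 fold changes of nPM against control ran from −0.12 (Per1, 95% confidence interval −0.36 to 0.12) to 0.09 (Arntl, −0.15 to 0.32). The median over the 10 genes was −0.02, beside −0.01 over all genes tested. The intervals leave room for changes of moderate size in the variable genes, down to −0.28 or up to 0.32 for Dbp, but for less in Clock (−0.10 to 0.10) and Cry2 (−0.18 to 0.05). No gene of the 19797 had an adjusted p under 0.05 for nPM in both sexes, and that of each clock gene was 0.9998. The edgeR quasi-likelihood test and the DESeq2 Wald test likewise called none of the 10 at p under 0.005 or under 0.05.

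**Figure D1:**
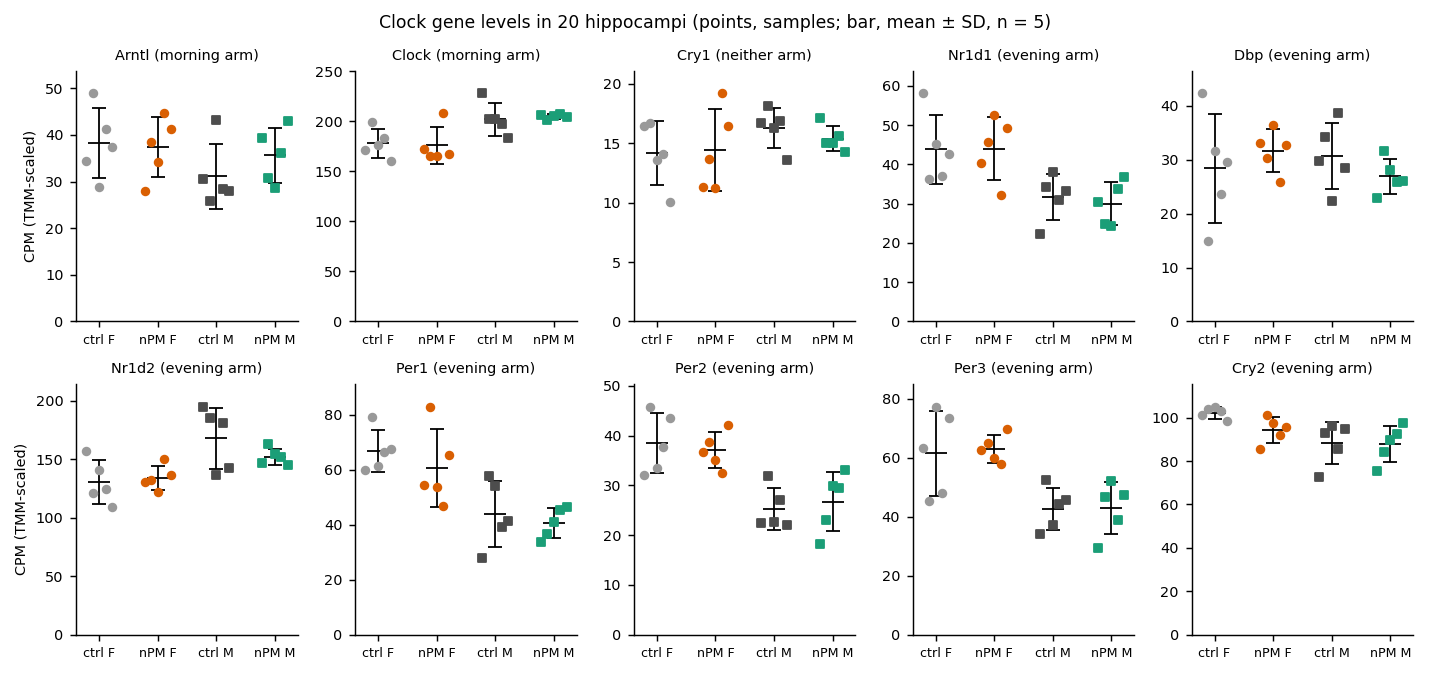
Level of each clock gene in CPM (vertical axes, linear and starting at 0) in the 20 hippocampi, grouped on the horizontal axes as control (ctrl) and nPM females (F, circles) and males (M, squares); points are samples and bars are the mean ± SD of 5 samples. The nPM and control samples of a sex overlap for all 10 genes, while Per1, Per2, Per3 and Nr1d1 lie lower in most males than in most females.

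In males alone, the activator Arntl and the output gene Dbp had the outermost values. Arntl was at 30.5, 25.8, 43.1, 28.3 and 27.9 CPM in control males 1 to 5 and at 39.4, 30.7, 28.6, 36.2 and 43.0 CPM in nPM males 1 to 5. The highest value of all was in a control male, and the 2 ranges overlap widely. The log2 fold change was 0.21 (−0.11 to 0.53, adjusted p = 0.963). Dbp was at 29.7, 34.3, 22.4, 38.6 and 28.5 CPM in control males and at 22.9, 31.6, 28.1, 25.8 and 26.0 CPM in nPM males. Its log2 fold change was −0.19 (−0.48 to 0.11, adjusted p = 0.963), and none of the 10 genes passed p under 0.005 (0.207% of all genes did) or 0.05 (4.28%).

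In females alone, Dbp had the widest interval and Cry2 the smallest p. Dbp was at 42.3, 14.9, 31.6, 23.6 and 29.6 CPM in control females 1 to 5 and at 33.1, 30.4, 36.5, 25.8 and 32.8 CPM in nPM females 1 to 5. The controls held both the highest and the lowest Dbp value of all 20 samples, and the log2 fold change was 0.25 (−0.22 to 0.73, adjusted p = 0.9999). Cry2, a repressor, was at 101, 104, 105, 103 and 98.3 CPM in control females and at 85.4, 101, 97.5, 92.2 and 95.8 CPM in nPM females, so that 4 of the 5 nPM samples lay below every control. In limma-voom this difference of −0.10 (−0.24 to 0.04) did not pass (adjusted p = 0.9999). A two-sided exact permutation test of the 5 nPM against the 5 control values gave p = 0.0159 for Cry2, with a mean difference of −0.12 on the log2 scale. It was the only 1 of 20 such tests (10 genes in 2 sexes) with a p under 0.05, and the smallest p this design allows is 0.00794. None of the 10 genes passed p under 0.005 in females in limma-voom (0.0909% of all genes did), or p under 0.05 (1.99%).

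The effects of nPM in the 2 sexes were then compared with each other. Dbp had the largest difference, with a log2 effect in males 0.42 below that in females (−0.999 to 0.15, adjusted p = 0.987), and none of the 10 genes passed p under 0.005 (0.217% of all genes did) or 0.05 (3.79%). The intervals of this comparison are wide, reaching from −0.57 to 0.38 for Nr1d1 and from −0.41 to 0.57 for Per1, and differences of that size lie within them.

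**Figure D2:**
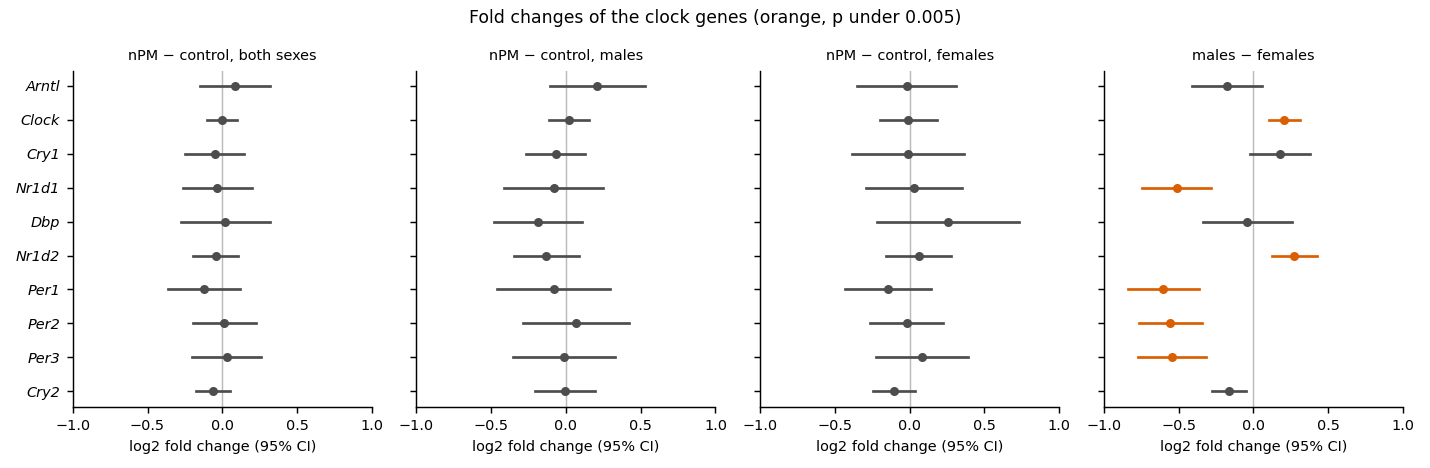
Log2 fold change (horizontal axes) of each clock gene with its 95% confidence interval from limma-voom, for nPM against control in both sexes, in males and in females, and for males against females; orange marks p under 0.005. Every interval of the 3 nPM panels includes 0, and 6 genes are orange in the panel of the sexes.

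The clock genes differed between males and females, in opposite directions within the evening arm. With exposure as a covariate, 6 of the 10 passed p under 0.005, but so did 31.1% of all 19797 genes (6147 genes), so that a count of this kind is common in these samples. The 4 that were lower in males (17.1% of all genes were lower at this threshold) were the evening genes Per1, Per2, Per3 and Nr1d1. Clock and Nr1d2 were higher in males (13.9% of all genes were).

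Per2, a repressor of the loop, was at 32.0, 45.8, 33.4, 37.8 and 43.5 CPM in control females and at 36.7, 38.8, 35.2, 32.5 and 42.2 CPM in nPM females. It was at 22.4, 31.8, 22.7, 27.1 and 22.0 CPM in control males and at 18.3, 23.0, 29.8, 29.4 and 33.0 CPM in nPM males. Of the 10 males, 9 were below every female, and the ranges of the sexes overlapped only through nPM male 5. The log2 difference of males from females was −0.56 ± 0.10 (SE, adjusted p = 0.00021). Per1 fell by 0.60 ± 0.11 on the log2 scale in males (adjusted p = 0.00034), with a range of 28.0 to 57.8 CPM and a median of 41.3 in males and 47.0 to 83.0 CPM and a median of 63.4 in females, and 8 males were below every female. Per3 fell by 0.54 ± 0.11 (adjusted p = 0.00057), from a median of 62.8 CPM (45.5 to 77.3) in females to 44.9 CPM (29.5 to 52.3) in males. For Nr1d1, the repressor of Arntl, females had 32.1 to 58.1 CPM with a median of 43.9 and males 22.4 to 38.1 CPM with a median of 32.1, a log2 difference of −0.51 ± 0.11 (adjusted p = 0.0010). For Per3 and for Nr1d1, 5 of the 10 males were below every female. No clock gene separated the sexes without overlap, where 4.82% of all genes did.

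Nr1d2, the close relative of Nr1d1, went the other way. It was higher in males by 0.27 ± 0.07 (log2, adjusted p = 0.0049), at 137 to 195 CPM with a median of 154 in males and 109 to 157 CPM with a median of 131 in females. Clock was higher in males by 0.21 ± 0.05 (adjusted p = 0.0023), at 183 to 228 CPM with a median of 203 in males and 160 to 208 CPM with a median of 172 in females. Cry2 was lower in males by 0.16 ± 0.06 (adjusted p = 0.023), past the adjusted threshold of 0.05 but not past p under 0.005. With Cry2, 7 of the 10 genes had an adjusted p under 0.05 (40.4% of all genes had) and the same 7 a p under 0.05 (48.4%). Cry1 (0.18, −0.02 to 0.38), Arntl (−0.18, −0.41 to 0.06) and Dbp (−0.04, −0.34 to 0.26) did not pass at either threshold.

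The difference between the sexes moved with several properties of the libraries. The median log2 difference of males from females was 0.21 in the fifth of genes with the shortest transcripts and −0.05 in the fifth with the longest. With the trend over GC content and transcript length removed in each sample, Per1 was at −0.42, Per2 at −0.36, Per3 at −0.38 and Nr1d1 at −0.49, while Nr1d2 was at 0.17, Clock at 0.10 and Cry2 at −0.03. The summed level of 5 endothelial markers was 137 to 190 CPM in females and 108 to 129 CPM in males without overlap, and 3 of the 5 markers (Flt1, Pecam1 and Slco1a4) were lower in males at p under 0.005. Of 12 genes that respond to glucocorticoids, which raise Per1 transcription, 4 were lower in males at p under 0.005 (Fkbp5, Zbtb16, Plin4 and Cdkn1a) and none was higher. Of 9 genes that respond to temperature, 3 were higher in males (Rbm3, Hspa8 and Hsp90aa1). Of all genes, 17.1% were lower and 13.9% higher in males at this threshold. Of 5 astrocyte markers, Aqp4 and Gja1 were higher in males at p under 0.005, while the summed level of the 5 was 4620 to 5650 CPM in females and 4010 to 5380 CPM in males. Of 5 microglia markers P2ry12 was higher, and their summed level was 125 to 223 CPM in females and 177 to 212 CPM in males. None of the 3 blood markers and 7 choroid plexus markers tested passed p under 0.005, though their median log2 differences of males from females were 1.63 and 1.24. The blood markers summed to 1.25 to 4.94 CPM in females and 2.68 to 56.9 CPM in males, and the choroid plexus markers to 46.0 to 8210 CPM and 32.5 to 7320 CPM. The part of cell type content, of glucocorticoid or temperature responses and of the time of collection in the sex difference was not tested.

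Lists of genes that respond to stimuli known to act on the clock were tested for nPM as well. Of 17 neuronal activity genes and 9 temperature-responsive genes, none passed p under 0.005 in both sexes, in males, in females or in the comparison of the effects in the sexes. Of 12 glucocorticoid-responsive genes, 1 passed, the lipid droplet gene Plin4, at a log2 fold change of −0.89 in nPM females (adjusted p = 0.9999), where 0.0909% of all genes passed. The median log2 fold change of these 12 genes in females was −0.28, beside 0.0038 over all genes, and 0.0057 in males.

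Among 24 further clock genes, 23 had a symbol in the table and passed the filter. None of the 23 passed p under 0.005 for nPM in both sexes, in males, in females or in the comparison of the sexes' effects, and their median log2 fold change in both sexes was −0.05. Ciart, a repressor of the activator pair, was the only one with a p under 0.05 for nPM, lower in nPM males at a log2 fold change of −0.42 (−0.71 to −0.13, adjusted p = 0.963). Between the sexes 7 of the 23 passed p under 0.005, where 31.1% of all genes did. Among the 4 that were higher in males were Tipin (0.31), Nono (0.18), a partner of PER proteins, and Cipc (0.14), a repressor of the activators. Fbxw11, which acts in the degradation of PER proteins, was at 0.14 (adjusted p = 0.024). The 3 that were lower in males were Arntl2 (−0.65), a relative of Arntl, Npas2 (−0.44), which can take the place of Clock, and Bhlhe41 (−0.23), a repressor at E-boxes. Usp2 was at −0.29 (adjusted p = 0.046).

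How far each clock gene varied between animals of the same group was read from the SD of log2 CPM around the group means. Dbp varied most, with an SD of 0.34, above 93.8% of the 8572 genes with a mean count at least that of Cry1. Per1 (0.29), Nr1d1 (0.28), Per3 (0.27), Arntl (0.27), Per2 (0.25) and Cry1 (0.24) also lay above at least 83.3% of these genes. Nr1d2 was at 0.17, near the median of all ranked genes (0.15). Cry2 (0.12) and Clock (0.11) varied less than most genes. The SD that counting alone would give was between 0.020 and 0.070 for the 10 genes, so that counting error made up a small part of the spread.

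The log2 ratio of Dbp to Arntl, 1 gene of each arm, differed widely between animals kept under the same condition. It ran from −1.71 in control female 2 to 0.45 in control male 4. Within control females it ran from −1.71 to 0.30, within nPM females from −0.79 to 0.24, within control males from −0.94 to 0.45 and within nPM males from −0.78 to 0.04. The 4 groups overlap. The ratio is of CPM, without correction for the lengths of the transcripts, so its sign does not say which of the genes had more transcripts.

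Arntl and Dbp varied in opposite directions between the samples. After the mean of each group was subtracted, their Pearson correlation over the 20 samples was r = −0.71 (permutation p = 0.00133, adjusted p = 0.026 over the 45 pairs of clock genes; Spearman rho = −0.73, permutation p = 0.001). In control female 2, Arntl was at 48.9 CPM and Dbp at 14.9 CPM, the highest and the lowest value of these genes in any sample. In control male 3, Arntl was at 43.1 CPM, the highest of the males, and Dbp at 22.4 CPM, the lowest of the males. At the other end, control female 3 had 28.8 CPM of Arntl and 31.6 CPM of Dbp, and control male 4 had 28.3 CPM of Arntl and 38.6 CPM of Dbp. Without control male 3 and nPM female 1, the 2 samples farthest from the median of Arntl, r was −0.72 (permutation p = 0.00753). It was −0.78 in the 10 males and −0.70 in the 10 females. The adjusted p was 0.052 to 0.065, no longer under 0.05, without any 1 of control female 2, control male 1, control male 3, nPM female 4 and nPM male 1, with r from −0.66 to −0.71. Among the 19796 other genes, Arntl stood 34th from the bottom by its r with Dbp. By its r with Arntl, Dbp stood 115th from the bottom, and an r with Arntl at or below −0.5 was found for 6.78% of all genes.

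Per3 varied with Dbp and against Arntl. Its r with Dbp was 0.62 (rho = 0.65, permutation p = 0.0117 and 0.00992, adjusted p = 0.066 and 0.089) and its r with Arntl −0.58 (rho = −0.58, permutation p = 0.0139 and 0.0162, adjusted p = 0.070 and 0.10). Both missed the adjusted threshold over the 45 pairs. Without the 2 samples farthest from the median they were 0.62 for Dbp and −0.66 for Arntl, and both had the same sign in males (0.59 and −0.57) and in females (0.70 and −0.60). Control females 2 and 4 had the lowest Per3 of their group (45.5 and 48.2 CPM) together with the lowest Dbp and the highest Arntl.

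Per1 varied with Cry2 and with Per2. The correlation with Cry2 was r = 0.77 (permutation p = 0.00073, adjusted p = 0.026; rho = 0.71, permutation p = 0.0027) and that with Per2 r = 0.63 (permutation p = 0.00176, adjusted p = 0.026; rho = 0.71, permutation p = 0.00084). Control male 1 had the lowest Per1 (28.0 CPM) and the lowest Cry2 (72.8 CPM) of all samples, and nPM male 1 had 33.6 CPM of Per1, 75.5 CPM of Cry2 and the lowest Per2 (18.3 CPM). Without control male 1 and nPM female 2, the samples farthest from the median of Per1, r was 0.59 with Cry2 (permutation p = 0.02) and 0.75 with Per2 (permutation p = 0.00185). In the sexes taken alone, r of Per1 and Cry2 was 0.88 in males and 0.52 in females, and r of Per1 and Per2 was 0.60 and 0.70. Per2 and Cry2 did not pass, at r = 0.48 (rho = 0.32, permutation p = 0.0825 and 0.214, adjusted p = 0.28 and 0.48), with 0.19 without control male 2 and nPM male 1, 0.61 in males and 0.05 in females. The pairs of Per1 with Cry2 and Per2 pairs and the pair of Arntl and Dbp were the 3 of 45 pairs with an adjusted p under 0.05. The adjusted p of Per1 and Cry2 was 0.052 to 0.063 without any 1 of control male 1, control male 3 and nPM male 1 (r from 0.64 to 0.77). That of Per1 and Per2 was 0.052 to 0.065 without any 1 of control female 2, control males 1 and 2, nPM female 4 and nPM male 1 (r from 0.56 to 0.66). With the trend over GC content and transcript length removed in each sample, neither pair passed, with r of 0.62 for Per1 and Cry2 (adjusted p = 0.084) and 0.51 for Per1 and Per2 (adjusted p = 0.11). An r with Per1 at or above 0.5 was found for 5.04% of all genes, and Cry2 stood 12th from the top among the 19796.

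**Figure D3:**
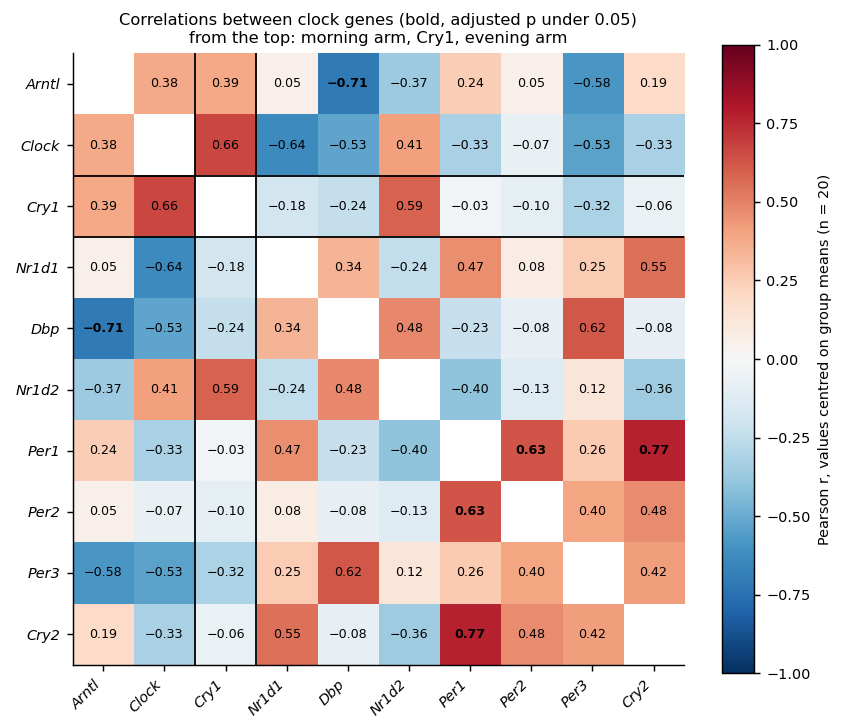
Pearson correlation of each pair of clock genes over 20 samples, from log2 CPM centred on the mean of each group; red is positive, blue is negative, and bold values have an adjusted p under 0.05 over the 45 pairs. Black lines part the morning arm, Cry1 and the evening arm. The 3 bold pairs are Arntl with Dbp (−0.71), Per1 with Per2 (0.63) and Per1 with Cry2 (0.77).

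The 2 arms did not vary as 2 blocks. Of the 14 pairs of a morning and an evening gene, 9 had a negative r and 5 a positive r, with a median of −0.33. Of the 21 pairs within the evening arm, 14 were positive and 7 negative, with a median of 0.26. Arntl was negative with Dbp, Per3 and Nr1d2 (−0.37), but near 0 with Nr1d1 (0.05), its repressor, and with Per2 (0.05), and slightly positive with Per1 (0.24) and Cry2 (0.19). Dbp in turn had an r of −0.23 with Per1 and −0.08 with Per2. In the sexes taken alone, r of Arntl and Nr1d1 was 0.57 in males and −0.46 in females, and r of Arntl and Per2 was −0.23 and 0.48. Per3 had an r of 0.42 with Cry2, 0.40 with Per2 and 0.26 with Per1, which was 0.62, 0.75 and 0.51 in males and −0.01, −0.19 and −0.10 in females. These differences between the sexes were not tested. Arntl and Clock, the activator pair itself, had an r of 0.38 (permutation p = 0.143).

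**Figure D4:**
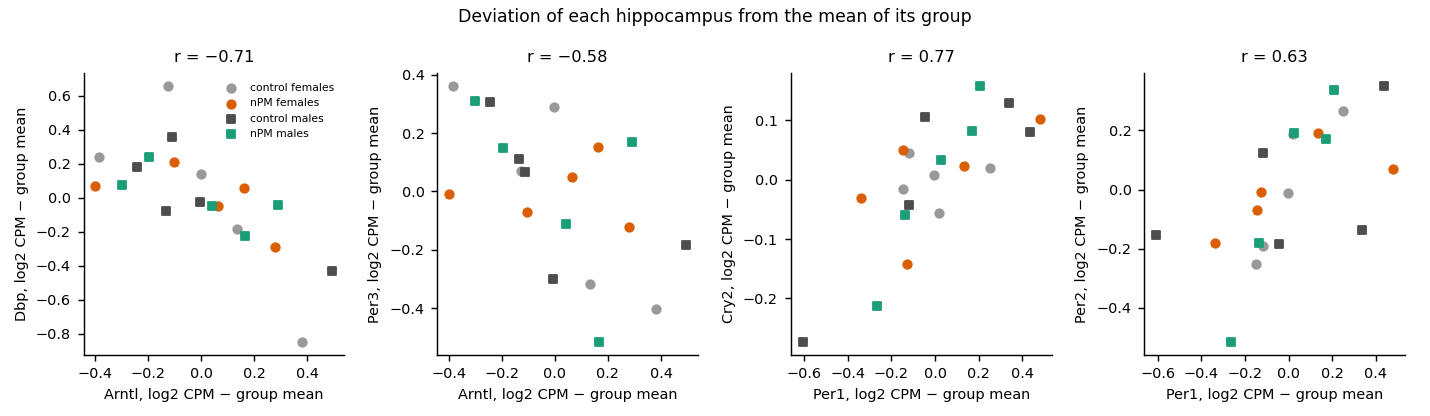
Log2 CPM of pairs of clock genes as the deviation of each sample from the mean of its group (both axes), with 5 samples in each group, circles for females and squares for males. Arntl falls against Dbp (r = −0.71) and Per3 (r = −0.58), and Per1 rises with Cry2 (r = 0.77) and Per2 (r = 0.63). Control females lie close together in Cry2, from −0.06 to 0.05 around their mean.

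Clock was negative with 6 of the 7 evening genes and positive with Nr1d2 (0.41), and its r with Nr1d1 rested on 2 libraries. That r was −0.64 (rho = −0.46, permutation p = 0.00845 and 0.0428, adjusted p = 0.059 and 0.18) over 20 samples and −0.29 without nPM female 4 and control male 1, the 2 libraries that stood apart in base composition, which were also the samples farthest from the median of Clock. Clock varied with Cry1 at r = 0.66 (rho = 0.58, permutation p = 0.00912 and 0.0154, adjusted p = 0.059 and 0.10) and 0.59 without the same 2. Its r with Per3 was −0.53 (rho = −0.50, permutation p = 0.00492 and 0.0266, adjusted p = 0.055 and 0.13) and −0.54 without them, and its r with Dbp was −0.53 (rho = −0.50, permutation p = 0.0335 and 0.0408, adjusted p = 0.14 and 0.18) and −0.62 without them. Cry1, which peaks late, varied with Nr1d2 at r = 0.59 (rho = 0.56, permutation p = 0.00762 and 0.0201, adjusted p = 0.059 and 0.11), or 0.38 without control female 5 and nPM female 4. Nr1d1 varied with Cry2 at r = 0.55 (rho = 0.65, permutation p = 0.0233 and 0.00657, adjusted p = 0.10 and 0.074), or 0.36 without nPM female 4 and control male 1. In all, 11 of the 45 pairs had a permutation p under 0.05 before adjustment.

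Some of this variation ran along that of the whole transcriptome or of the dissection. The first principal component of all genes, after centring, held 25.7% of the variance and had an r of 0.60 with Arntl, 0.51 with Clock, −0.35 with Dbp and −0.48 with Per3. With this component removed, r of Arntl and Dbp was −0.67 and the adjusted p 0.13. The summed levels of 12 lists of cell type and region markers were also regressed out 1 at a time. This left r of Arntl and Dbp between −0.61 and −0.73, of Dbp and Per3 between 0.55 and 0.70, of Per1 and Cry2 between 0.67 and 0.78 and of Per1 and Per2 between 0.50 and 0.71. It brought r of Clock and Cry1 down to 0.26 (microglia) and of Cry1 and Nr1d2 down to 0.23 (hippocampal neurons). The adjusted p of Arntl and Dbp was no longer under 0.05 with meningeal (0.17), choroid plexus (0.060) or blood markers (0.057) regressed out. With blood markers regressed out, those of Per1 and Per2 (0.15) and of Per1 and Cry2 (0.097) were not either, nor was that of Per1 and Per2 with thalamus markers (0.059).

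Neuronal activity genes, which neurons switch on within minutes of stimulation, varied with the same clock genes. A list of 17 such genes, all of which passed the filter, had a median r of 0.57 with Arntl (16 of 17 positive), −0.56 with Dbp (17 of 17 negative), 0.57 with Per1 (16 of 17 positive) and 0.36 with Per2 (17 of 17 positive). The median over all genes was between −0.01 and 0.03 for these 4. Markers of regions and of other tissue varied with these genes too: 6 neocortex markers had a median r of 0.60 with Arntl (6 of 6 positive), −0.28 with Dbp (0 of 6), 0.39 with Per1 (6 of 6) and 0.32 with Per2 (5 of 6). Rorb, 1 of these 6, is also among the further clock genes, at r = 0.61 with Arntl and −0.24 with Per2. So is Rora, which is on the list of thalamus markers. The 7 choroid plexus markers had a median r of −0.53 with Arntl (0 of 7 positive) and 0.26 with Dbp (7 of 7). The part of the dissection in the values of the activity genes was not tested. Egr1, a zinc finger factor, ran from 35.6 to 171 CPM and had an r of 0.75 with Arntl, −0.65 with Dbp and 0.70 with Per1. Arc, which acts at synapses, ran from 38.4 to 292 CPM and had an r of 0.59 with Arntl, −0.62 with Dbp and 0.63 with Per1. Jun was the exception for Arntl (−0.06) and Per1 (−0.22). Genes of this list share an inducer and are not independent of each other, so these values are a description.

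The list of 12 glucocorticoid-responsive genes had a median r of 0.40 with Per1 (11 of 12 positive) and 0.22 with Per2 (12 of 12 positive), but −0.08 with Arntl and −0.15 with Dbp. The 9 temperature-responsive genes had a median of −0.29 with Dbp and 0.15 with Arntl. Of these, Cirbp and Rbm3, which are raised by cold, had an r of 0.53 and 0.45 with Dbp, while the heat shock gene Hsph1 had −0.82. The 23 further clock genes had no common direction, with medians between −0.15 and 0.17. Tef, a D-box factor like Dbp, had an r of 0.60 with Dbp and −0.42 with Arntl. Hlf, also a D-box factor, went the other way, at −0.13 with Dbp and 0.43 with Arntl. Nfil3, the repressor at D-boxes, had −0.66 with Dbp and 0.44 with Arntl. Bhlhe40, an E-box repressor that is also induced by activity, had an r of 0.71 with Arntl, −0.53 with Dbp and 0.62 with Per1. Bhlhe41, also a repressor at E-boxes, had 0.09 with Arntl, 0.13 with Dbp and −0.18 with Per1.

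**Figure D5:**
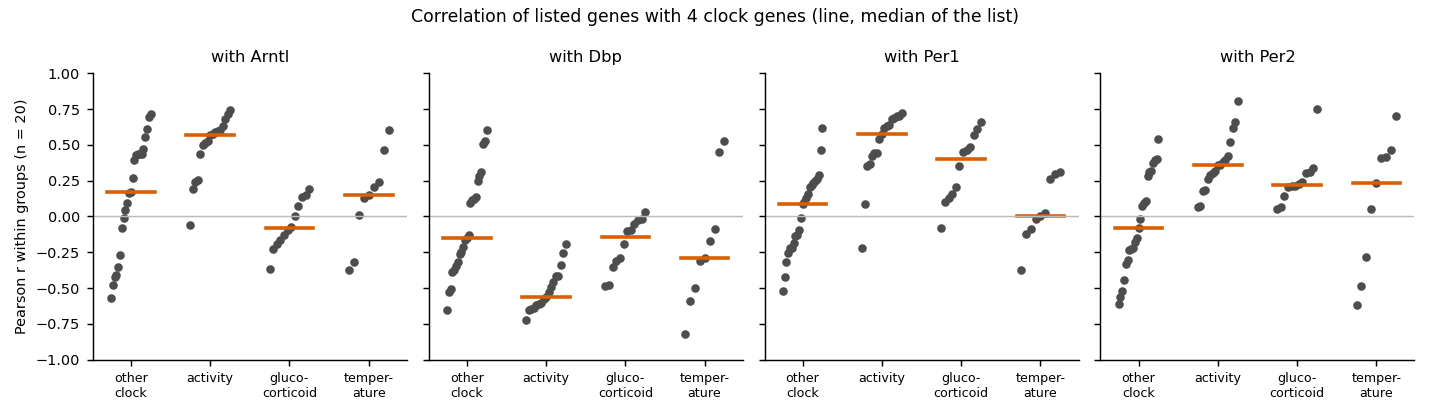
Pearson correlation (vertical axes, over 20 samples, centred on group means) of each gene of 4 lists with Arntl, Dbp, Per1 and Per2; points are genes and orange lines are the median of the list. The 17 activity genes lie above 0 for Arntl and Per1 except Jun, all above 0 for Per2 and all below 0 for Dbp.

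Likeness to the evening arm as a whole was read from the mean r of a gene with its 7 genes. Of 14666 genes with a mean of at least 50 counts, the 10 with the highest mean r over the 7 evening genes were Gm38910 (0.44), Tmppe, Nup188, Rnf31, Abcc8, Tef (0.41), Ltk, Plk5, Gm42748 and Fancc (0.40). The 10 with the lowest were Acvr1c (−0.47), Rwdd4a, Rab27b, Ptges3, Lpin2, D3Ertd751e, Eif3g, Usp39, Prelid3b and Cd44 (−0.42). Tef was the only one of these 20 genes on the list of further clock genes. No mean r over the 7 genes was beyond −0.47 or 0.44. The 7 genes were themselves weakly related, with a median r of 0.26, which limits such a mean.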

How the data were processed

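RNA of the right hippocampus of 20 mice was measured by RNA-seq. The authors depleted ribosomal RNA, trimmed reads (Trimmomatic), aligned them to mm10 (HISAT2), counted them per gene (featureCounts 1.5.0-p3, Gencode M11) and deposited whole-number counts without normalization, with a table of symbols, positions, lengths and the mean RPKM per gene. RPKM per sample was computed from the counts and lengths, and its mean matched the deposited RPKM.

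TMM factors (edgeR 4.0.16) and filterByExpr over the 4 groups (minimum count 10, minimum total 15) came first. limma-voom (limma 3.58.1, R 4.3.3, offset of 0.5 counts) was fitted across the 19797 genes in both sexes, in males, in females, for the interaction and for sex. Calls were made at p under 0.005, which the study used, beside a Benjamini-Hochberg adjusted p over all genes. Correlations used log2 CPM centred on the 4 group means and 100000 permutations within groups, adjusted over 45 pairs. All tests were two-sided. SDs were ranked among genes with a mean count at least that of the lowest clock gene. Scripts were tested on simulated data. Single values were compared by exact permutation tests (scipy 1.17.1).

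The 10 genes, the arms and all lists were chosen with earlier results of these data known. Named beside the 10 genes were further clock genes with a p under 0.05, the 10 genes most and least like the evening arm, and genes of the other lists by counts. Genes singled out in text from the activity, glucocorticoid, temperature and endothelial lists, and from the further clock genes for their correlations, were picked after their values were seen. Values of 1 further clock gene are not reported here. The name Chrono matched no symbol, being another name of Ciart. Nothing in the labels says that samples were separate litters, so p-values measure the spread between these mice. Mean squared differences between samples of a group were 14.7 to 82.2 times counting noise over 40 pairs, so no library was counted as a repeat of another. Alternatives were edgeR's quasi-likelihood test, DESeq2 1.42.0, RLE factors, no filter, quality weights, age, a replicate block, 1 fit of the 4 groups and each sample left out.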

Additional observations from a re-analysis of the deposited data

Results flagged for a closer look

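Clock in nPM female 4 was flagged as a sample far from the others of its group. Its level was 7.70 on the log2 CPM scale (208 CPM), where the next highest nPM female was at 7.43, and this gap made up 0.81 of the range of the group, above Dixon's critical value of 0.71 for 5 samples. It was the only 1 of 40 sets of 5 values (10 genes in 4 groups) that was flagged, where chance flags about 1 set in 20. This library also had the lowest level of GC-rich genes relative to GC-poor genes of all 20 (−0.59, log2); whether this set its Clock level was not tested.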

How the results depend on the processing

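The count of clock genes at p under 0.005 stayed at 0 for nPM under every alternative that was run and at 6 or 7 between the sexes with all samples or with any 1 left out. Between the sexes it was 4 in controls alone and 5 in nPM mice alone. At p under 0.05 for nPM, 3 clock genes passed in males without control male 3. In females 1 passed without control female 1 or nPM female 2, and 1 passed in the comparison of the effects without control female 1. No clock gene passed this threshold in any other nPM fit. The number of correlated pairs was less stable than 3 of 45. It was 24 without centring, 1 in males, 0 in females, 7 with the replicate block, 6 without the first 3 principal components and 0 without nPM female 4 and control male 1. With marker levels regressed out it was 7 (hippocampal neurons), 8 (astrocytes), 5 (endothelial cells), 0 (blood), 6 (neocortex) and 7 (hypothalamus). With each sample left out it ranged from 0 (without control male 1 or nPM male 1) to 6 (without nPM male 2); without control male 3 or nPM female 4 it was 1, and without control female 1 or nPM male 5 it was 5. Values without centring hold the differences between the group means, those between the sexes included. The cause of the shifts was not tested, though males or females alone are 10 samples. Over 22 settings other than leaving out 1 sample, r of Arntl and Dbp was between −0.61 and −0.78 (adjusted p under 0.05 in 15), of Per1 and Cry2 between 0.52 and 0.88 (in 18) and of Per1 and Per2 between 0.45 and 0.84 (in 15). With the replicate block, r of Per1 and Per2 was 0.45 (adjusted p = 0.31). Replicate numbers were shared by the groups, but deviations of same-numbered samples correlated between −0.42 and 0.28 over 30 pairs and 6 of 20 samples correlated best with their own number, so they were not treated as pairs. The replicate block brought Cry2 under p of 0.005 between the sexes, for a count of 7, and changed no other call of single clock genes in the fits of exposure and sex. Uncalled fold changes near 0 changed sign. For nPM in both sexes Clock was 0.0053 without a filter, Dbp was −0.016 in edgeR and in DESeq2, and with 1 sample left out Clock was −0.029 to 0.018, Nr1d1 −0.083 to 0.014, Dbp −0.086 to 0.081, Per2 −0.029 to 0.070 and Per3 −0.024 to 0.089. Between the sexes Dbp was −0.14 to 0.027 with 1 sample left out and 0.17 in controls alone. Depth limits none of the 10 genes strongly, and 5 samples per group limit all of them.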

Other observations

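The gene most opposed to Dbp among the 14666 genes with a mean of at least 50 counts was Crem (r = −0.85 over 20 samples), which encodes repressors and activators at cAMP response elements, followed by Arhgef7 (−0.82), Stk38l (−0.82), the heat shock gene Hsph1 (−0.82) and the neurotrophin gene Bdnf (−0.79). Per2 varied with the activity gene Egr3 (r = 0.80) and with the chemokine gene Cxcl12 (0.87). Cry1 followed Nudt4 at r = 0.97, and Nr1d2 followed Hif1a at 0.83. These genes were named after their values were seen, and the correlations are given as a description.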
